A study of Mus musculus with 6 samples.

Results

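The glycolysis and lactate genes described here are 10 genes of the duodenal villus epithelium. They are the hexokinases Hk1 and Hk2, the phosphofructokinase Pfkl, the payoff enzymes Pgk1, Eno1 and Pkm, the lactate dehydrogenases Ldha, Ldhb and Ldhd, and the lactate transporter Slc16a1. They were taken by symbol from a count table of 20409 features, and the set was put together because Ldhd was higher in double mutant than in wild-type villi. The difference between the groups therefore belongs to the choice of these genes, and it is given below as a description. Calls and adjusted p-values printed for these genes, also with a mouse left out, are no independent support for it. All 10 are protein-coding and were in the table, and 9 of them were among the 13346 features with enough counts to be compared. Pkm is listed in the mm9 annotation under its older symbol, Pkm2.

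Glycolysis splits glucose into pyruvate in a priming stage that spends ATP and a payoff stage that returns it. Pyruvate then enters the mitochondria or is reduced to L-lactate by the Ldha and Ldhb enzymes, and monocarboxylate transporters carry lactate across the plasma membrane together with a proton. Ldhd is a mitochondrial flavoprotein that oxidises the mirror form, D-lactate, which arises from methylglyoxal, a by-product of glycolysis, and from gut bacteria.

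Bulk RNA was sequenced from villus epithelium of 3 wild-type and 3 double mutant mice as a separate library each, after selection of polyadenylated RNA. The double mutant mice carried Smad4 fl/fl and Ctnnb exon3 fl/wt alleles with a Villin-CreERT2 transgene, so that tamoxifen removed Smad4 and stabilised β-catenin throughout the intestinal epithelium. They received tamoxifen intraperitoneally at 0.05 g/kg on 4 days, and villi were compared at 7 days after induction. The wild-type mice were uninjected littermates, so the alleles and the tamoxifen cannot be told apart here. Each group held 1 male, the mouse with number 1, and 2 females. The age of the mice is not given in the sources used here. The villi were shaken off the duodenum in EDTA and held back on a filter, without a sort for a cell type.

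Between 19678507 and 26337318 reads were counted per library, so 3 counts corresponded to 0.125 to 0.163 CPM (counts per 1000000 counts of the library). Library totals were adjusted by edgeR's TMM factors, and these floors cover counting error only. Smad4 fell from 148 ± 30.4 CPM (SD, n = 3) in wild-type to 31.7 ± 5.40 CPM (SD, n = 3) in the double mutant, or by 2.22 on the log2 scale (adjusted p = 0.000145, edgeR's quasi-likelihood test with Benjamini-Hochberg adjustment). A gene is named as called below where its adjusted p in this test was under 0.05. Of all 13346 features compared, 19.7% were called higher and 17.0% lower. The library of wild-type mouse 1 stood apart from the other wild-type libraries. Its log2 CPM values correlated with theirs across genes at r = 0.957 and 0.958, against 0.984 between those 2, and its goblet cell markers held 0.0111% of its counts (95% Wilson interval 0.0107 to 0.0115%) against 1.07% and 1.04%. Paneth cell markers held 0.000721% of its counts against 0.0848 and 0.144%. The markers of several cell types moved with the group. Enterocyte markers held 4.69 to 5.23% of the counts in wild-type and 3.19 to 3.52% in double mutant villi, with 7 of 10 called lower and 1 higher, and proliferation markers held 0.0061 to 0.00902% and 0.0206 to 0.0252%, with 7 of 8 called higher. Stem cell markers held 0.00798 to 0.0194% and 0.0343 to 0.0453%, with 4 of 8 called higher. Tuft cell markers held 0.00982 to 0.0143% and 0.00143 to 0.00172%, with 7 of 7 called lower, and enteroendocrine markers 0.021 to 0.0316% and 0.0109 to 0.0119%, with 6 of 8 called lower and 1 higher. Goblet cell markers held 0.465 to 0.526% in double mutant villi, with 1 of 7 called higher, and Paneth cell markers 0.0166 to 0.0263%, with none of 6 called by edgeR, none at an unadjusted p under 0.05 and 1 lower by DESeq2. Immune cell markers held 0.00787 to 0.0161% and 0.00807 to 0.0123%, with 2 of 8 called lower, and the B cell marker Cd79a had no count in any wild-type library. Without wild-type mouse 1, 5 of 7 goblet cell markers were called lower and 1 higher, 2 of 6 Paneth cell markers lower and 1 higher, 6 of 8 immune cell markers lower, 7 of 8 enteroendocrine markers lower and 6 of 8 stem cell markers higher. Stromal markers held at most 0.000808% in any library and erythroid markers at most 8.13e-05%. The part of these shifts in the results below was not tested, and in bulk villi fewer cells of a type and less RNA per cell cannot be told apart.

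The promoter of Ldhd is shown because this gene decided the choice of the set, and that of Slc16a1 because it was the other one of the 10 with the palindromic E-box CACGTG in the 250 bases before its annotated start. Both were read from the mm9 genome and are written from 5′ to 3′ on the strand of the gene. Capitals mark the E-box CACGTG, the motif CTTTGAT on either strand (a TCF/LEF motif, the reverse complement being ATCAAAG) and GGCGCC (a GC-rich SMAD motif).
Ldhd, chr8:114154275-114154524, minus strand: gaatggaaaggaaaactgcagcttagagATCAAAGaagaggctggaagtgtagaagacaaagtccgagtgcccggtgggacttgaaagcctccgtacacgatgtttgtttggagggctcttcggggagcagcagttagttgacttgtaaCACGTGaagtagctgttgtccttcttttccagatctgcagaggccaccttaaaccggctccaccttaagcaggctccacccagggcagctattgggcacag
Slc16a1, chr3:104442341-104442590, plus strand: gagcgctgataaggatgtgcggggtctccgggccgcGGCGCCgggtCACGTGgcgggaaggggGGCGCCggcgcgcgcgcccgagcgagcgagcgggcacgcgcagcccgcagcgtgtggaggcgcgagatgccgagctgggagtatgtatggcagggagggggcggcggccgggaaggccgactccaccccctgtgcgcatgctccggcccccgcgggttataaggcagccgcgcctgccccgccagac
In the Ldhd window, CACGTG lies 101 to 96 bases before the start and the TCF/LEF motif lies 222 to 216 bases before it on the opposite strand. In the Slc16a1 window, CACGTG lies 204 to 199 bases before the start, between 2 copies of GGCGCC. Windows of the same length hold CACGTG in 6.51% of 22380 protein-coding genes, CTTTGAT in 3.05%, CTTTGTT in 4.67% and GGCGCC in 11.1%. CACGTG contains ACGTG, the core of the hypoxia response element, on both strands. ACGTG is present in 17.5% of all windows and, among the 10 genes, in those of Hk2, Pgk1, Ldhd and Slc16a1. None of the 10 windows holds CTTTGTT. A match of letters is a description of the sequence and no measurement of binding.

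Among the 9 genes compared, 6 passed an adjusted p of 0.05 in edgeR's quasi-likelihood test, 2 higher (Ldhd and Pfkl) and 4 lower (Eno1, Pkm, Ldha and Slc16a1), where 36.8% of all features passed it, 19.7% higher and 17.0% lower. The count is a description, because the set was chosen on this contrast. The groups did not overlap for 7 of the 9, against 52.4% of all features, and the median log2 fold change was -0.18 against 0.02 over all features. Ldhd, Pfkl, Pkm and Slc16a1 were called whichever of the 6 mice was left out. Eno1 was called only without double mutant mouse 1 and Ldha only without double mutant mouse 2. Scaling by library size alone ended both calls, with adjusted p = 0.225 for Eno1 and 0.168 for Ldha by edgeR, and called 3732 of all features higher and 1425 lower in place of 2632 and 2273. With a log2 fold change of at least 2 required as well, 3.04% of all features were higher and 2.26% lower, and of the 9 genes Ldhd alone passed.

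Ldhd had the largest difference of the 9. The gene (ENSMUSG00000031958) lies at chr8:114147685-114154274 of mm9 on the minus strand. Its counts were 158, 96 and 127 in the wild-type mice and 1269, 1444 and 1308 in the double mutant mice. The normalized levels were 6.58, 5.22 and 6.42 CPM in wild-type and 59.6, 67.0 and 62.1 CPM in double mutant villi. Every double mutant mouse was far above every wild-type mouse, and within each group the mice lay close together. The group means were 6.07 ± 0.742 CPM (SD, n = 3) and 62.9 ± 3.76 CPM (SD, n = 3), a log2 fold change of 3.37 with a standard error of 0.14, or 10.3-fold. Ordered by log2 fold change from the highest, Ldhd was at rank 66 of the 13346 features compared. The log2 value stayed between 3.27 and 3.43 when any of the mice was left out. The mouse that stood apart, wild-type 1, had the highest of the wild-type values for Ldhd, 6.58 CPM, and gave 3.43 when it was left out.

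**Figure D1:**
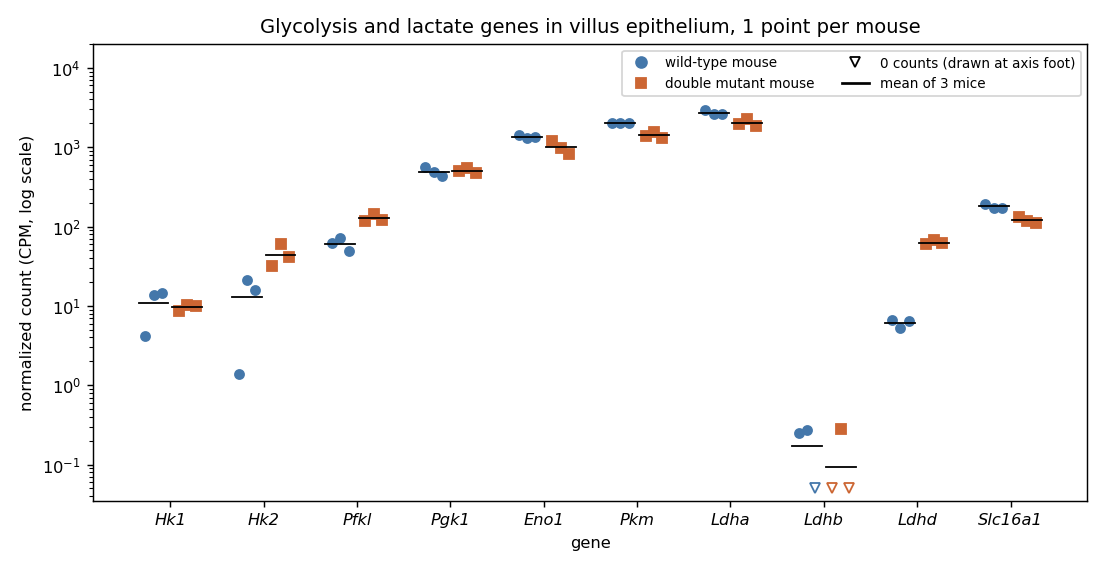
Normalized counts in CPM on a log axis for the 10 genes, with 1 point per mouse (circles, 3 wild-type mice; squares, 3 double mutant mice) and a line at each group's mean; triangles mark libraries with 0 counts. Ldhd separates the groups by 10.3-fold, and Hk1 and Hk2 show wild-type mouse 1 at 4.12 and 1.37 CPM, below the other wild-type mice.

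Some reads counted for Ldhd may belong to another gene. Of the 31-base words of its coding transcripts, 0.68% also occur elsewhere in the genome, so few of its reads are shared with another copy. Of its 5328 annotated exon bases, however, 2246 overlap exons of Znrf1, which encodes a ubiquitin ligase and is transcribed from the opposite strand. The strand setting of the counting is not given in the sources used here. Znrf1, named after its values were seen, had 4.67, 7.34 and 9.05 CPM in wild-type and 13.1, 15.1 and 13.5 CPM in double mutant villi, with a log2 difference of 0.99. The longest coding transcript of Ldhd, of 2273 bases, shares no base with Znrf1.

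Genes with a pattern over the 6 mice most like that of Ldhd were sought. The measure was the root mean square distance between log2 CPM values centred on each gene's mean. These values carry a prior count of 2, which shrinks the differences of rare transcripts. Lgmn, which encodes the lysosomal protease legumain, was the nearest at 0.166, with 19.2, 17.8 and 18.7 CPM in wild-type and 159, 157 and 193 CPM in double mutant villi. Trfr2, which encodes a transferrin receptor, followed at 0.215, then a numbered transcript outside the annotation at 0.247, the zinc finger gene Zfp202 at 0.259 and Gm11974 at 0.312. These last 4 were rare transcripts, with at most 4.08 CPM in any mouse, whereas Lgmn was more abundant than Ldhd in every mouse. In wild-type mice these 4 had at most 0.292 CPM, near or under the floor of 3 counts. Their fitted log2 fold changes were 3.72, 4.25, 5.29 and 3.24 in the order named, against 3.37 for Ldhd. Their distances therefore depend on the prior count. The likeness rests mainly on a shared difference between the groups and is a description over 6 mice.

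D-lactate is made from methylglyoxal in 2 steps, by the glyoxalase Glo1 and the hydrolase Hagh, before Ldhd oxidises it to pyruvate. The genes around this route moved in both directions. Glo1 had 88.7, 83.0 and 86.5 CPM in wild-type and 162, 194 and 173 CPM in double mutant villi, and its groups did not overlap. It rose by 1.03 on the log2 scale (standard error 0.11, adjusted p = 0.000353, edgeR's quasi-likelihood test with Benjamini-Hochberg adjustment). Of its 31-base words, 56.4% occur elsewhere in the genome, so its counts are less certain than those of Ldhd. Hagh had 100.4, 79.8 and 74.0 CPM in wild-type and 42.3, 47.4 and 45.0 CPM in double mutant villi, and it fell by 0.92 on the log2 scale (standard error 0.137, adjusted p = 0.00153, edgeR). Only 0.557% of its 31-base words occur elsewhere. Both calls held whichever of the 6 mice was left out.

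D2hgdh, which oxidises D-2-hydroxyglutarate and belongs with Ldhd to the flavin-dependent D-2-hydroxyacid dehydrogenases, had 24.6, 16.1 and 16.8 CPM in wild-type and 21.9, 16.6 and 19.8 CPM in double mutant villi. Its groups overlapped and its log2 fold change was 0.02 (standard error 0.196, adjusted p = 0.948, edgeR). Of the D2hgdh 31-base words, 47.8% occur elsewhere in the genome. Of 5 tested genes in the list for methylglyoxal and D-hydroxy acids, 2 rose and 2 fell, beside 19.7% higher and 17.0% lower over all features.

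**Figure D2:**
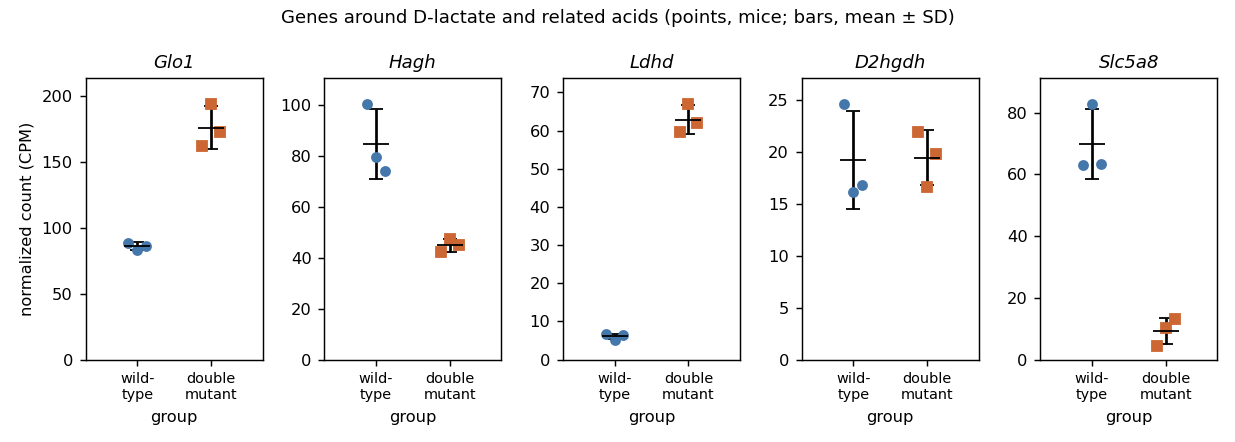
Normalized counts in CPM (linear axes from 0, each panel with its own scale) of Glo1, Hagh, Ldhd, D2hgdh and Slc5a8, with 1 point per mouse and bars for the mean ± SD of 3 mice. Glo1 and Ldhd are higher and Hagh and Slc5a8 lower in double mutant villi, and D2hgdh overlaps between the groups.

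The L-lactate dehydrogenases were nearly all Ldha, which encodes the subunit that favours lactate formation. Ldha (chr7:54096845-54110997, plus strand) had 2966, 2607 and 2597 CPM in wild-type and 1962, 2281 and 1851 CPM in double mutant villi. All 3 double mutant values were below the lowest wild-type value. Its means were 2723 ± 210.2 and 2031 ± 223 CPM (SD, n = 3 each), a log2 fold change of -0.42 (standard error 0.129). Leaving out each mouse in turn gave -0.52 to -0.36. Ldhb (chr6:142438769-142456477, minus strand) encodes the subunit typical of heart, and its counts lay near or under the floor of 3 counts. It had 6, 5 and 0 counts in the wild-type libraries and 0, 6 and 0 in the double mutant libraries, at most 0.278 CPM, and did not pass the filter on low counts. Of the Ldha 31-base words 42.8% occur elsewhere in the genome, and of those of Ldhb 43.5%.

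Per length, Ldha and Ldhd were far apart in level. With CPM divided by the length of all annotated exons in kb, Ldha was at 913 ± 70.5 CPM per kb in wild-type and 681 ± 74.8 CPM per kb in double mutant villi. Ldhd was at 1.14 ± 0.139 and 11.8 ± 0.706 CPM per kb (SD, n = 3 each). As a share of the per-length level of Ldha, Ldhb and Ldhd together, Ldhd made up 0.124, 0.112 and 0.138% in the wild-type mice and 1.67, 1.62 and 1.84% in the double mutant mice. Ldhd thus stayed a small part of the lactate dehydrogenase transcripts in both groups. The exons that overlap Znrf1 lengthen the gene, and with the length of the coding transcript alone the Ldhd share was 0.173 ± 0.0182% and 2.36 ± 0.161%.

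Slc16a1 encodes the monocarboxylate transporter MCT1. The gene (chr3:104442591-104462385, plus strand) had 193, 173 and 171 CPM in wild-type and 131, 117 and 112 CPM in double mutant villi. The lowest wild-type mouse was above the highest double mutant mouse. The means were 179 ± 12.1 and 119.7 ± 9.84 CPM (SD, n = 3 each), a log2 fold change of -0.58 (standard error 0.111), with -0.64 to -0.52 when each mouse was left out. None of its 31-base words occurs elsewhere in the genome.

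Of 6 tested genes in the list for lactate and monocarboxylate handling, 2 fell and none rose by edgeR's quasi-likelihood test, beside 17.0% lower and 19.7% higher over all features. At an unadjusted p under 0.05, 1 of them rose and 3 fell, and by DESeq2 none rose and 3 fell. The one added by DESeq2 was Slc5a12, a sodium-coupled lactate importer named after its values were seen, with 91.9 ± 41.3 CPM in wild-type villi and 36.1 ± 15.5 CPM in the double mutant (log2 fold change -1.35, adjusted p = 0.0566 by edgeR). Its groups overlapped, and it passed in edgeR without mouse 3 of either group. Bsg encodes basigin, the chaperone that brings MCT1 to the membrane, and had 1009, 926 and 1004 CPM in wild-type and 1086, 1253 and 1185 CPM in double mutant villi. Its groups did not overlap, but its log2 fold change of 0.26 (standard error 0.112) missed the threshold (adjusted p = 0.101, edgeR). Slc16a3, which encodes the lactate exporter MCT4, had 139.6, 185 and 168 CPM in wild-type and 103, 136 and 124 CPM in double mutant villi. It fell by 0.44 on the log2 scale (standard error 0.148, adjusted p = 0.0456, edgeR). With a mouse left out the value ran from -0.54 to -0.33, and the call held only without double mutant mouse 2 or wild-type mouse 1. With library size alone as the scaling, Slc16a3 was at -0.25 (adjusted p = 0.217, edgeR) and Bsg was called higher at 0.45 (adjusted p = 0.0115, edgeR). Slc5a8, a sodium-coupled importer of monocarboxylates, had 63.2, 82.8 and 63.2 CPM in wild-type and 4.51, 10.2 and 13.0 CPM in double mutant villi. It had the largest fall among the pathway genes, 2.92 on the log2 scale (standard error 0.367, adjusted p = 0.00142, edgeR). The proton-linked transporters Slc16a1, Slc16a3, Slc16a7 and Slc16a8 together amounted to 71.8 ± 2.48 CPM per kb in wild-type and 50.0 ± 2.02 CPM per kb in double mutant villi, and Slc16a1 made up 56.4 ± 4.93% and 54.2 ± 5.34% of this sum.

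Hexokinase traps glucose in the cell as glucose 6-phosphate. Hk2 (chr6:82675019-82724448, minus strand), the inducible form, had 1.37, 21.4 and 16.0 CPM in wild-type and 32.0, 59.9 and 41.2 CPM in double mutant villi. The groups did not overlap, but wild-type mouse 1 lay far under the other wild-type mice. The log2 fold change was 1.79 with a standard error of 0.923, and without that mouse it was 1.25 with a standard error of 0.273. Hk1 (chr10:61731603-61842656, minus strand), the form of most tissues, had 4.12, 13.9 and 14.6 CPM in wild-type and 8.59, 10.2 and 9.97 CPM in double mutant villi. Its groups overlapped, with the same mouse alone among the wild-type mice under the double mutant values, and the log2 fold change was -0.18 with a standard error of 0.422, or -0.57 without wild-type mouse 1 and at most 0.09 without another mouse. Without wild-type mouse 1, Hk1 and Hk2 were both called, and in the other 5 fits that left out a mouse neither was. Hk1 shares 157 of its exon bases with a transcript of the opposite strand, 2210417K05Rik.

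Most hexokinase transcripts belonged to neither gene. Hkdc1, a hexokinase-like gene named after its values were seen, had 709, 640.2 and 674 CPM in wild-type and 351, 384 and 436 CPM in double mutant villi. It made up 97.4 ± 1.87% of the per-length level of the 5 hexokinase genes in wild-type villi and 89.8 ± 2.58% in the double mutant. The Hk2 share was 0.166, 2.76 and 1.97% in the wild-type mice and 7.15, 11.6 and 7.42% in the double mutant mice. The sum of the family was 134.9 ± 4.44 CPM per kb in wild-type and 84.7 ± 9.19 CPM per kb in double mutant villi.

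Pfkl encodes the liver-type subunit of phosphofructokinase, which commits sugar to glycolysis. It lies at chr10:77449692-77472828 on the minus strand and had 62.6, 71.2 and 48.7 CPM in wild-type and 118, 146 and 120.3 CPM in double mutant villi. All double mutant mice were above all wild-type mice. The means were 60.8 ± 11.4 and 128 ± 15.6 CPM (SD, n = 3 each), a log2 fold change of 1.08 (standard error 0.16) that stayed between 0.93 and 1.20 with each mouse left out. Pfkp, the platelet-type subunit and, like Pfkm below, outside the rule for named genes, was the most abundant of the family, with 442 ± 18.0 and 460.5 ± 29.4 CPM. Of the per-length level of the 3 phosphofructokinase genes, Pfkl made up 21.5 ± 2.54% in wild-type villi and 34.8 ± 1.44% in the double mutant, and Pfkp 73.6 ± 2.68% and 58.8 ± 1.00%. Pfkm, the muscle-type subunit, made up 4.99 ± 0.697% and 6.40 ± 0.825%. With the length of the longest coding transcript the shares were smaller, 12.8 ± 1.69% and 22.7 ± 1.05% for Pfkl and 2.68 ± 0.392% and 3.75 ± 0.481% for Pfkm.

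The payoff enzymes of the set were abundant, with log2 fold changes between -0.52 and 0.04. Pgk1 (chrX:103382439-103399038, plus strand), which makes the pathway's earliest ATP, had 556, 487 and 435 CPM in wild-type and 495, 543 and 478 CPM in double mutant villi. The groups overlapped, and the log2 fold change was 0.04 (standard error 0.125). Of its 31-base words, 94% occur elsewhere in the genome, so reads of its processed copies cannot be separated from its own.

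Eno1 (chr4:149610830-149622988, plus strand) encodes the ubiquitous enolase. It had 1443, 1300.0 and 1333 CPM in wild-type and 1193, 983 and 820.0 CPM in double mutant villi, without overlap, and a log2 fold change of -0.44 (standard error 0.151) that ran from -0.58 to -0.32 with a mouse left out. Gm5506, a near-identical copy named after its values were seen, had 229, 206 and 204 CPM in wild-type and 166, 411 and 313 CPM in double mutant villi. The 2 double mutant mice with less Eno1 were those with more Gm5506. Summed over both genes, the levels were 1572 ± 88.3 and 1295 ± 141 CPM (SD, n = 3 each), a log2 difference of -0.28. Of the Eno1 31-base words, 53.5% occur elsewhere in the genome. How the counting divided reads between the copies was not tested.

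Pkm (chr9:59504383-59527182, plus strand) encodes the muscle-type pyruvate kinases, including the M2 form of dividing cells. The deposited counts do not separate its splice forms. It had 2009, 2019 and 2038 CPM in wild-type and 1366, 1544 and 1313 CPM in double mutant villi. The wild-type mice were nearly equal and all above the double mutant mice, and the log2 fold change was -0.52 (standard error 0.115), with -0.60 to -0.47 when each mouse was left out. Of the Pkm 31-base words, 63.5% occur elsewhere in the genome. Pklr, the liver and red cell pyruvate kinase, had 783, 725 and 581 CPM in wild-type and 404, 454 and 417 CPM in double mutant villi. It fell by 0.71 on the log2 scale (standard error 0.135, adjusted p = 0.00439, edgeR). The share of Pkm in the per-length level of the pair was 79.8 ± 2.56% in wild-type villi and 81.7 ± 0.644% in the double mutant, ranges that overlapped, while the sum went from 1061 ± 26.0 to 720.2 ± 57.8 CPM per kb.

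The order of the 10 genes by level differed little between the groups. In CPM per kb over all exons, wild-type villi had Ldha at 913, Pkm at 846, Eno1 at 253 and Pgk1 at 219.5, of which Eno1 and Pgk1 overlapped between mice. Slc16a1 followed at 40.5 and Pfkl at 13.8, and Hk2 at 2.17, Hk1 at 1.27 and Ldhd at 1.14 overlapped with their neighbours. In double mutant villi Ldhd stood at 11.8, above Hk2 at 7.43 and Hk1 at 1.12 and below Slc16a1 at 27.1, and no mouse of these 4 genes overlapped with the next gene. Pfkl, at 29.2, overlapped with Slc16a1, Ldha at 681 with Pkm at 589, and Pgk1 at 225 with Eno1 at 186. Ldhb was last in both groups, at 0.111 and 0.0591 CPM per kb. With the length of the longest coding transcript instead, Eno1 was above Pgk1 without overlap in both groups, at 670.3 against 269.8 CPM per kb in wild-type and 493 against 277 CPM per kb in double mutant villi. By that length Ldha, at 1150 CPM per kb in double mutant villi, no longer overlapped with Pkm at 634. Ldhd then stood at 27.7 CPM per kb and overlapped with Slc16a1 at 27.1, and Pfkl at 34.4 overlapped with neither.

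The other genes of the pathway came from a list of 68, of which 63 were in the table and 59 were compared. Of these, 14 rose, 16 fell and 29 did not pass an adjusted p of 0.05 (edgeR's quasi-likelihood test with Benjamini-Hochberg adjustment), with a median log2 fold change of -0.13, beside 19.7% higher, 17.0% lower and a median of 0.02 over all features. Among the 14 other glycolysis enzymes, 4 rose and 3 fell. Aldolase cleaves the hexose bisphosphate. Aldoa, the form of most tissues, had 564, 579 and 593 CPM in wild-type and 875, 1076 and 888 CPM in double mutant villi and rose by 0.71 (standard error 0.12, adjusted p = 0.00264, edgeR).

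**Figure D3:**
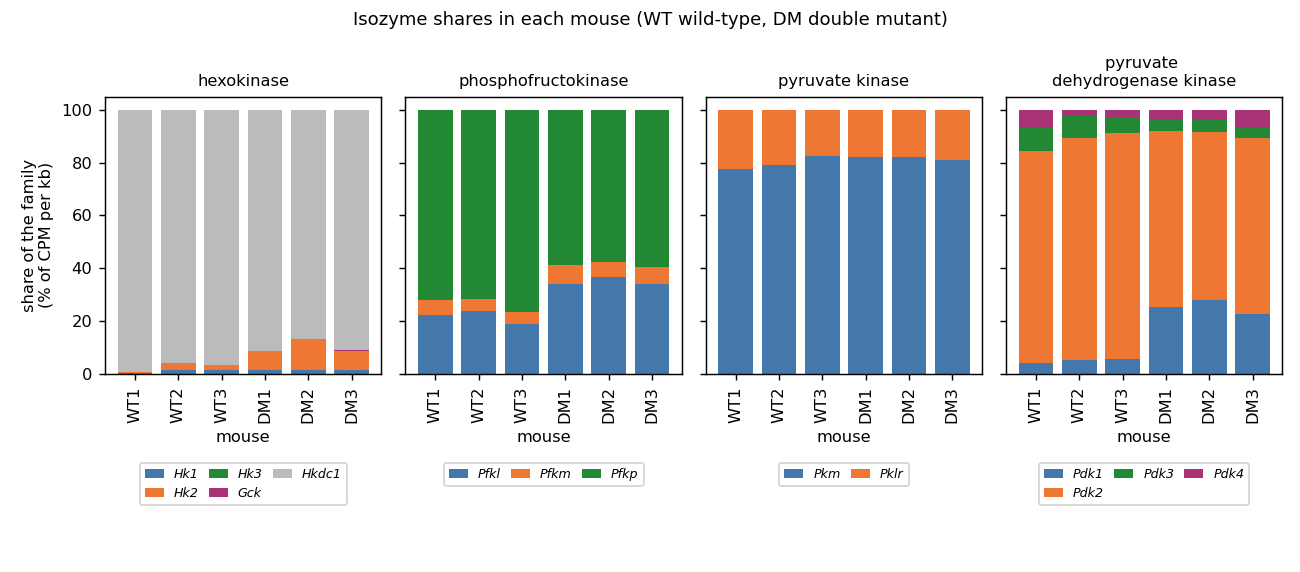
Stacked bars of each isozyme's share of its family in % of CPM per kb of exon, 1 bar per mouse (WT, wild-type; DM, double mutant). Hk2, Pfkl and Pdk1 take larger shares in the double mutant mice, and Pkm has 77.6 to 82.6% of the pyruvate kinase level in the wild-type mice and 81.0 to 82.2% in the double mutant mice.

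Gapdh, the enzyme that links the priming stage to the payoff stage, was listed at 29.3, 21.3 and 25.4 CPM in wild-type and 222, 89.2 and 128 CPM in double mutant villi. It rose by 2.53 on the log2 scale (standard error 0.342, adjusted p = 0.00193, edgeR). These levels lie far under those of Eno1, Pgk1 and Ldha, and 80% of the 31-base words of Gapdh occur elsewhere in the genome, so its level and its change are uncertain. Of the 6 genes in the list of glycolysis regulators, 1 rose (Tigar, named after its values were seen) and 3 fell, beside 19.7% and 17.0% of all features. Hif1a, which encodes the oxygen-regulated subunit of HIF-1, had 112, 110.3 and 69.3 CPM in wild-type and 73.0, 64.1 and 61.6 CPM in double mutant villi. It fell by 0.56 on the log2 scale (standard error 0.186, adjusted p = 0.0458, edgeR), although its groups overlapped. Leaving out a mouse gave -0.75 to -0.44, with the call held only without wild-type mouse 3. With library size alone as the scaling it was at -0.36 (adjusted p = 0.146, edgeR).

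**Figure D4:**
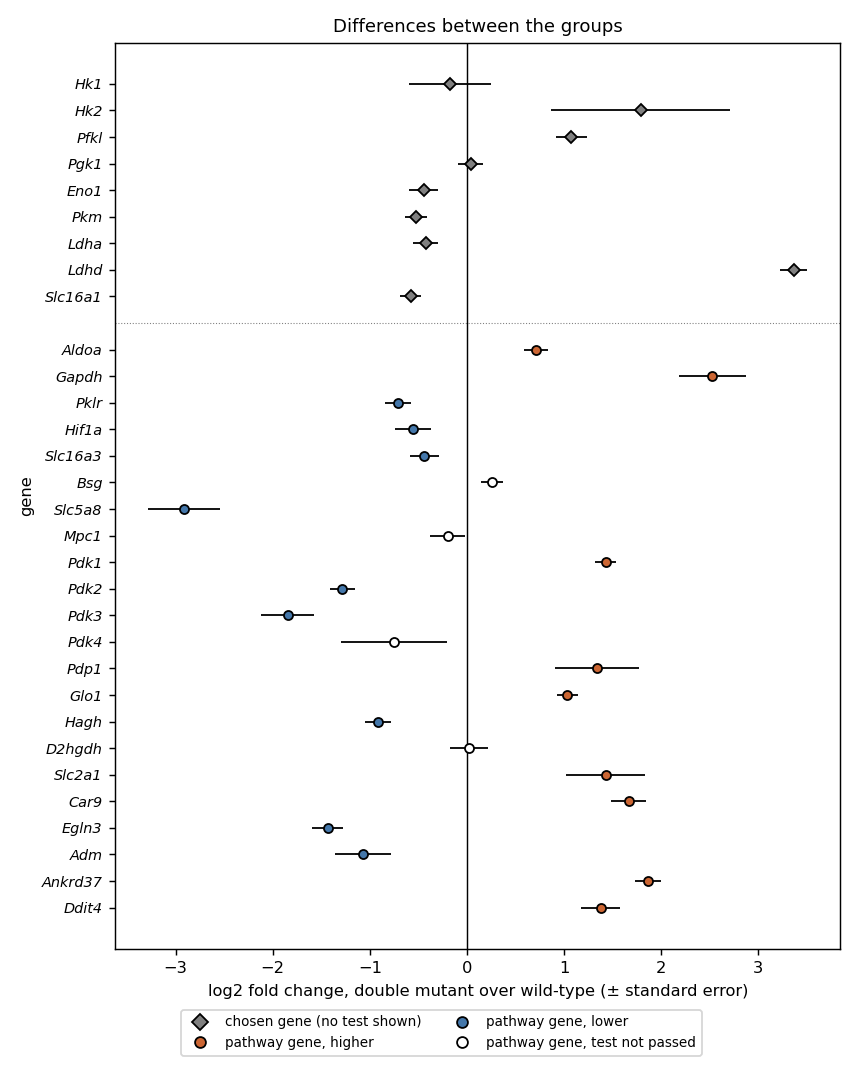
Log2 fold change of double mutant over wild-type villi with its standard error, for the 9 chosen genes that were compared (diamonds, no test shown) and 22 named genes of the pathway list (circles, filled where the adjusted p was under 0.05). Ldhd lies furthest to the right at 3.37 and Slc5a8 furthest to the left at -2.92.

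Pyruvate enters the mitochondria through the carrier made of Mpc1 and Mpc2 and is then oxidised by pyruvate dehydrogenase, which the Pdk kinases switch off and the Pdp phosphatases switch on. Mpc1 had 15.0, 17.8 and 14.1 CPM in wild-type and 13.3, 11.3 and 16.3 CPM in double mutant villi, overlapping groups that differed by -0.20 on the log2 scale (standard error 0.179, adjusted p = 0.421, edgeR). The kinases moved in opposite directions. Pdk1, a HIF-1 target, had 26.2, 29.4 and 26.3 CPM in wild-type and 75.4, 75.8 and 69.4 CPM in double mutant villi and rose by 1.43 (standard error 0.111, adjusted p = 0.000111, edgeR). Pdk2 had 215, 191 and 166 CPM in wild-type and 80.8, 70.4 and 84.1 CPM in double mutant villi and fell by 1.28 on the log2 scale (standard error 0.131, adjusted p = 0.000304, edgeR). Pdk3 fell by 1.85 (standard error 0.27, adjusted p = 0.00137, edgeR), and Pdk4 was at -0.75 on the log2 scale (standard error 0.544, adjusted p = 0.324, edgeR), which was 0.08 without wild-type mouse 1. The Pdk1 share of the per-length level of the 4 kinases was 4.92 ± 0.812% in wild-type villi and 25.2 ± 2.75% in the double mutant (exact two-sided permutation test, p = 0.1, the smallest that 3 against 3 mice allow). Pdp1, which had at most 4.55 CPM in any mouse, rose by 1.34 (standard error 0.43, adjusted p = 0.0388, edgeR). Its value ran from 1.03 to 1.60 with a mouse left out, and its call held only without double mutant mouse 2 or wild-type mouse 2. With the replicate number as a block its adjusted p was 0.091 (edgeR). Pdp2, named after its values were seen, was more abundant and fell, from 23.0 ± 3.0 to 12.2 ± 2.2 CPM (SD, n = 3 each). Its log2 fold change was -0.91 (standard error 0.178, adjusted p = 0.00494, edgeR), and it was called whichever of the 6 mice was left out. Of the 14 genes of this list, 2 rose and 4 fell, beside 19.7% and 17.0% of all features.

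Hypoxia raises many glycolytic genes through HIF-1, and a list of 14 other genes induced by hypoxia was read beside them. Of these, 5 rose and 2 fell, where 19.7% of all features rose and 17.0% fell. Slc2a1, which encodes the glucose transporter GLUT1, had 5.62, 16.8 and 18.6 CPM in wild-type and 33.5, 38.7 and 37.6 CPM in double mutant villi and rose by 1.43 (standard error 0.405, adjusted p = 0.0319, edgeR), or by 1.05 without wild-type mouse 1. The highest value with a mouse left out was 1.71, and its call held only without wild-type mouse 1 or 3. With no filter on low counts its adjusted p was 0.0966 (edgeR). Car9, a carbonic anhydrase, rose by 1.67 (standard error 0.181, adjusted p = 0.000379, edgeR), from 74.3 ± 18.5 to 235.7 ± 8.66 CPM. Ankrd37 rose by 1.87 and Ddit4, an inhibitor of mTORC1, by 1.38 (adjusted p = 7.31e-05 and 0.00149, edgeR). Egln3, a prolyl hydroxylase that marks HIF for degradation, fell by 1.43 on the log2 scale, from 286 ± 51.0 to 105.9 ± 12.9 CPM (adjusted p = 0.000379, edgeR). Adm, which encodes the peptide adrenomedullin, fell by 1.07 (adjusted p = 0.0194, edgeR), or by 0.86 to 1.24 with a mouse left out, and was then called only without wild-type mouse 1 or 2. The other 7 genes of the list did not pass. Without wild-type mouse 1, 7 of the 14 were called higher and 2 lower.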

How the data were processed

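The authors isolated villus epithelium from 6 mice, sequenced 1 library from each, mapped the reads to mm9 (HISAT2), summed them by gene (featureCounts) and deposited these counts raw, with no pooling. The strand setting and the treatment of reads that match several genes are not given in the sources used here. From the counts onward, edgeR 4.0.16 in R 4.3.3 was used: filterByExpr to drop low features, TMM factors, and the robust quasi-likelihood fit and F test, with Benjamini-Hochberg adjustment over the 13346 features tested. The group was the only term. A standard error is the log2 fold change over the root of that test's F. The code was checked on simulated counts with 200 genes changed. Of 20073 Ensembl identifiers, 20032 matched GENCODE for mm9, the source of symbols, exons and coordinates. Isozyme shares use CPM per kb of all annotated exons.

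The 10 genes, the pathway list, the marker lists and the motifs were chosen with earlier results of these data known. Named besides the 10 are pathway genes called with an absolute log2 fold change of at least 1, pathway genes of fixed interest whatever their values (Aldoa, Gapdh, Pklr, Slc16a3, Bsg, Mpc1, Pdk4, Hif1a, Glo1, Hagh and D2hgdh), the 5 genes nearest to Ldhd, and Smad4. Some genes under this rule are not reported here. Alternatives were DESeq2 1.42.0, RLE factors, library size alone, no low-count filter, the replicate number as a block, sex as a term, a log2 fold change of 2 besides the adjusted p, and each mouse left out in turn. A sum of Eno1 with Gm5506 and the coding transcript length were added after the data were seen. The mice are separate animals.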

Additional observations from a re-analysis of the deposited data

How the results depend on the processing

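Of the 9 genes compared, Ldhd, Pfkl, Pkm and Slc16a1 kept their direction and their call under every alternative fit that was run, and the log2 fold change of Ldhd ran from 3.27 to 3.56 over them. Scaling by library size alone raised the median log2 fold change of all genes by 0.193 and left 2 genes of the set lower instead of 4, Eno1 and Ldha being lost, and 3732 of all genes higher instead of 2632 and 1425 lower instead of 2273. Among the named pathway genes the same scaling ended the calls of Hif1a and Slc16a3 and added that of Bsg, a replicate block ended that of Pdp1 and the absence of a low-count filter that of Slc2a1. Requiring a log2 fold change of 2 as well left 406 of 2632 genes higher and 302 lower, 1 gene of the set higher and 0 lower, 1 of 14 pathway genes higher and 1 of 16 lower, and 5 of 14 marker genes higher and 9 of 22 lower. With each mouse left out in turn, 1812 to 2783 of all genes were higher and 1630 to 2361 lower, 2 to 3 genes of the set higher and 2 to 3 lower, 11 to 15 pathway genes higher and 13 to 15 lower, and 9 to 17 marker genes higher and 19 to 34 lower. The 9 came without double mutant mouse 2 and the 34 without wild-type mouse 1. Replicate numbers were not taken as pairs of mice in the main fit. The deviations of mice with the same number from their group means correlated at 0.0224, -0.109 and 0.0123 across genes, and not every mouse correlated best with its own number. So few mice cannot exclude a pairing. With the replicate number as a block, 2 genes of the set were lower instead of 4, Eno1 and Ldha being lost. The cause of these differences was not tested. Genes under 0.125 to 0.163 CPM, among them Ldhb in 3 libraries, are below what 3 counts can show, and reads shared with copies elsewhere in the genome limit Pgk1, Gapdh, Pkm, Eno1 and Ldha.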
